A study of Danio rerio with 3 samples.

Results

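Retinal Progenitor is a class of 122 cells among the 6264 cells of the integrated cell table, taken as every cell to which the authors gave that name. Of these, 101 were collected at 36 hours post fertilisation (hpf), whereas 24 hpf gave 12 and 48 hpf gave 9. The cells came from zebrafish embryos, given as wild type, of the transgenic line Tg(olig2:EGFP), raised without treatment and collected at 24, 36 and 48 hpf. Embryos were deyolked and dissociated, green fluorescent cells were sorted, and 1 library of 3′ single-cell RNA profiles was made at each stage, so no stage has a replicate. EGFP driven by olig2 regulatory sequence marks the pMN domain, the progenitor zone of the ventral spinal cord that makes motor neurons and then oligodendrocyte precursors. The labels give the source as spinal cord cells, and the protocol describes no step that removes the head. It does not state how many embryos were pooled per library.

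Retinal progenitors are the dividing neuroepithelial cells of the optic cup. They give rise to the neurons of the retina and to Müller glia, and their nuclei move between the inner and outer surface of the epithelium as they pass through the cell cycle. In the mouse retina, Olig2 marks a subset of progenitors that are close to their last division. The files used here hold values per cell and none per gene, so marker genes could not be read, and the class name is the authors' own. The pMN classes of the same library were used for comparison, because their cells are progenitors sorted by the same transgene.

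Depth is given in unique molecular identifiers (UMIs), each standing for a captured RNA molecule. The library of 36 hpf summed to 10656224 UMIs over 2044 cells, and the 24 and 48 hpf libraries held 1826 and 2394 cells. Median depth ranged from 4569 UMIs per cell at 36 hpf to 8935.5 at 24 hpf. Of all cell barcodes 7 occurred in more than 1 library, and 0 of the 122 retinal cells carried one of them. Cells of 1 library are not replicates, so no p-value is given here, and every interval is an exact 95% binomial interval that covers counting error only.

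Retinal Progenitor cells were concentrated in the middle library. At 36 hpf they were 4.94% of the cells (interval 4.04 to 5.97). The share was 0.657% (0.340 to 1.15) in the 24 hpf library, and 0.376% (0.172 to 0.712) in that of 48 hpf. A share was taken as higher or lower only past a ratio of 2 with separate intervals. By that rule the 36 hpf share was higher than both others, 7.52-fold over 24 hpf (exact interval of the ratio 4.12 to 15.0) and 13.1-fold over 48 hpf (6.66 to 29.6). The 24 and 48 hpf shares did not differ by the same rule, with a ratio of 1.75 (0.676 to 4.70). Of the 122 cells, 82.8% came from the 36 hpf library. The class was chosen with this concentration known, so the shares and ratios describe it and are no test of it. The shares are of sorted fluorescent cells, and a difference in dissociation, in sorting or in the embryos cannot be told apart from the stage with 1 library each.

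**Figure D1:**
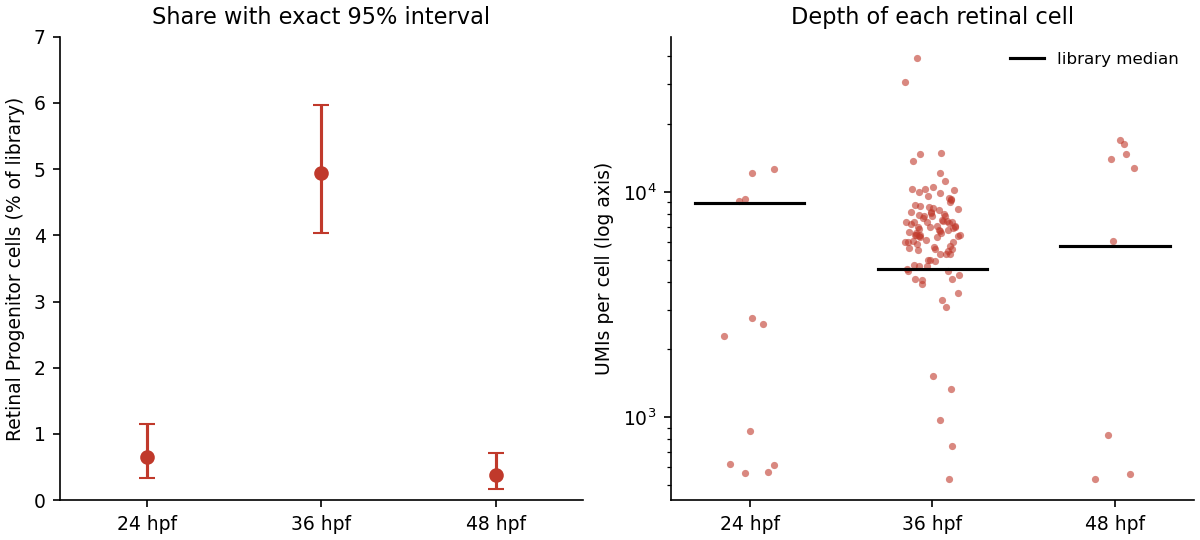
Left, Retinal Progenitor cells as a percent of each library, with exact 95% binomial intervals; right, UMIs per cell on a log axis for each retinal cell, with the median of its whole library as a black line. The 36 hpf share of 4.94% stands above 0.657% and 0.376%, and most 36 hpf retinal cells lie above their library's median of 4569 UMIs.

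The cells at the outer stages were of uneven depth. At 24 hpf the 12 retinal cells ran from 566 to 12654 UMIs with a median of 2449.5, against 8935.5 for the whole library. There were 8 cells of 566 to 2755 UMIs and 4 cells of 9112 to 12654 UMIs, with none between. At 48 hpf the lowest, median and highest of the 9 cells were 533, 12778 and 17031 UMIs. There, 3 cells had 831 UMIs or fewer, 5 had 12778 or more, and the remaining cell had 6042 UMIs but only 577 detected genes and a mitochondrial share of 4.52%. At 36 hpf most cells lay in the middle, with 5 of 101 under 3000 UMIs, 78 between 3000 and 9000, and 18 of 9059 to 39305. The full range at 36 hpf, from 532 to 39305 UMIs, was nevertheless wider than at 24 or 48 hpf, but it covers more cells. Its upper end rests on the cells of 30806 and 39305 UMIs. The next deepest cell had 14858 UMIs, below the 17031 at 48 hpf.

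The integrated name matched the stage-table name for most cells at 36 hpf and for no cell at 24 or 48 hpf. The authors also deposited 1 table per stage with its own class names. Of the 101 integrated retinal cells of 36 hpf, 96 were named Retinal Progenitor there as well (interval of the share 88.8% to 98.4%), 3 were pMN2, 1 was CMN and 1 was Pre-OPC. The pMN names matched less often between the tables, for 124 of 179 pMN1 cells (69.3%), 21 of 143 pMN2 cells (14.7%) and 63 of 95 pMN3 cells (66.3%), so the name pMN2 does not mark the same set of cells in the stage table as in the integrated table, whose classes are compared here. Those are the numbered names taken singly. As a group the pMN cells matched about as often as the retinal cells, since 402 of the 417 (96.4%) had some pMN name in the stage table. In the 24 hpf stage table none of the 12 cells had the name, and 11 of them were V2 IN Precursor, a name that refers to precursors of V2 interneurons of the ventral cord, while the last was pMN2. In the 48 hpf stage table the 9 cells were spread over 5 names, with 3 CMN, 2 MN4, 2 Mes, 1 MN1 and 1 OPC. The stage tables thus put the name on 113 cells at 36 hpf (5.53%, 4.58 to 6.61) and on 0 of 1826 and 0 of 2394 cells at the other stages, with exact upper limits of 0.202% and 0.154%. At 24 and 48 hpf the class therefore rests on the integrated table alone. Each stage table has its own names, so the 0 counts and their limits concern naming and do not bound the number of retinal cells.

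In the authors' integrated embedding most retinal cells of 24 and 36 hpf, and fewer of those at 48 hpf, lay among other retinal cells. The embedding comes from the expression that also gave the classes, so it describes the class and does not test it. At 36 hpf, 95 of 101 retinal cells had mostly retinal cells among their 10 nearest neighbours, and so did 10 of 12 cells at 24 hpf. At 48 hpf this held for 3 of 9 cells, which were the 3 cells named CMN in the stage table. In the separate embedding of the 36 hpf stage table the count was again 95 of 101, and pMN1, pMN2 and pMN3 cells made up 0.990%, 1.78% and 1.39% of the neighbours.

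**Figure D2:**
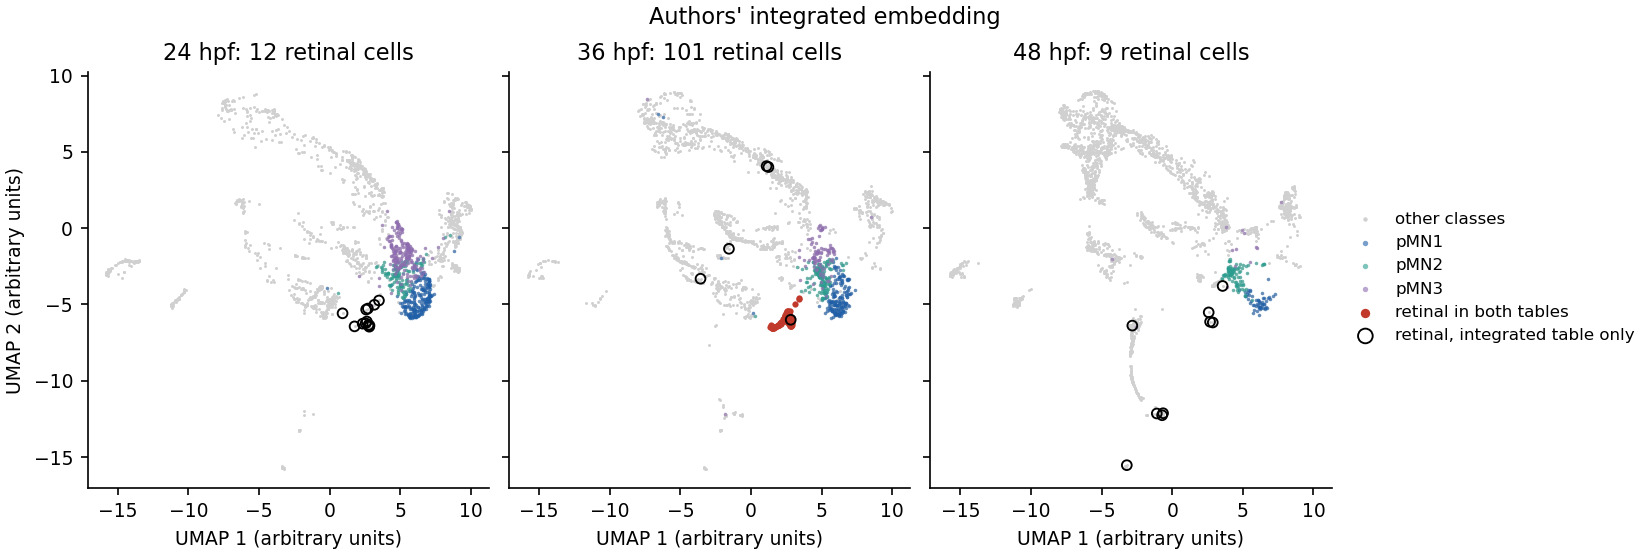
The authors' integrated embedding, drawn per stage, with retinal cells named so in both tables in red, retinal cells of the integrated table only as open circles, pMN1 to pMN3 in colour and all other cells in grey. Axes are arbitrary units. Most 36 hpf retinal cells form a compact group, and several of the 9 cells at 48 hpf lie far from it.

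Most retinal cells at 36 hpf were in cycle by the authors' phase calls. Of the 101 cells, 53 were called G2M (52.5%, 42.3 to 62.5), 34 were called S (33.7%, 24.6 to 43.8) and 14 were called G1 (13.9%, 7.79 to 22.2). The 87 cells called S or G2M were 86.1% of the class (77.8 to 92.2), whereas all other 36 hpf cells were at 36.2% (34.0 to 38.4). Motor neurons, which have left the cycle, serve as a rough comparison. The classes MN1 to MN5 together were at 2.51% (9 of 358 cells), from 0% in MN2 and MN3 to 7.5% in MN4. Their median depth was 4164.5 UMIs against 6741 in the retinal cells. Whether the 9 cells were misnamed or doublets was not tested. Among the 21 classes with at least 20 cells at 36 hpf, the retinal class had the 4th highest share, after pMN1, pMN2 and pMN3. Phase calls of the stage table gave 84.2% (75.6 to 90.7), and for 96 of the 101 cells the phase was equal in both.

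The retinal class held G1 cells, which pMN1 and pMN2 did not. None of the 179 pMN1 cells and none of the 143 pMN2 cells was called G1, with upper limits of 2.04% and 2.55%, while pMN3 had 10 of 95 (interval 5.16% to 18.5%). A share was taken as different between classes only past a gap of 10 percentage points with separate intervals. The share called S or G2M was lower in retinal cells than in pMN1 and in pMN2, by that rule, at 86.1% against 100%. It did not differ by the rule from pMN3, at 89.5% (81.5 to 94.8). Against the 3 pMN classes together, at 97.6% (95.6 to 98.8), it was lower in all cells, but the difference of -11.5 percentage points became -9.90 in cells matched on UMI count and -8.40 with the names of the stage table, both under the limit. Among cells of 5000 to 8000 UMIs the differences were -11.5 from pMN2, with overlapping intervals, and -9.42 from the 3 classes together. The 14 retinal cells called G1 were shallower than the rest, with a median of 4817.5 UMIs against 6615 in S and 7427 in G2M, and the part of depth in these calls was not tested beyond the matching. Classes are built from expression that may include the cycle genes, so the shares called S or G2M only describe the classes. They do not show that retinal cells divide less often than pMN cells.

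**Figure D3:**
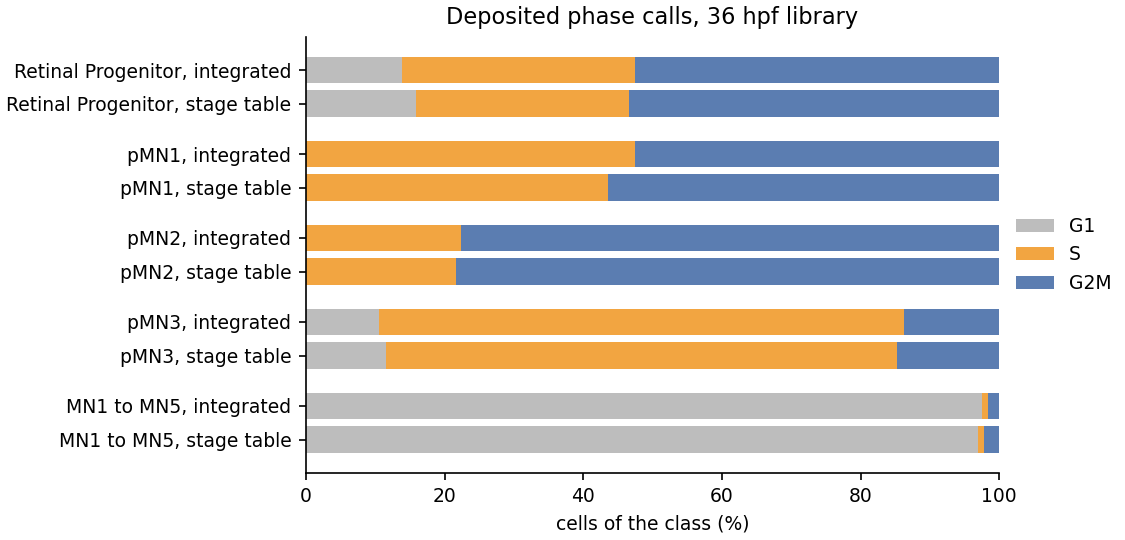
Phase calls at 36 hpf as a percent of the cells of each class, by the integrated and by the stage table, for Retinal Progenitor, pMN1, pMN2, pMN3 and the motor neuron classes. Retinal cells show G1, S and G2M calls of 13.9%, 33.7% and 52.5% in the integrated table, and pMN1 and pMN2 show none in G1.

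In their balance of S and G2M the retinal cells stood between the pMN classes, which differed widely among themselves. The S score and the G2M score are relative values per cell from genes of DNA synthesis and of division, and CC.Difference is the first minus the second. The median S score of retinal cells was 0.18 (quartiles -0.04 and 0.62), between 0.72 in pMN3 and -0.11 in pMN2 and below 0.28 in pMN1. Their median G2M score was 0.34 (0.07 and 0.79), close to 0.33 in pMN1, under 0.86 in pMN2 and above -0.05 in pMN3. The median CC.Difference was -0.12 (-0.63 and 0.43) in retinal cells, -0.06 in pMN1, -0.99 in pMN2 and 0.73 in pMN3. In words, pMN2 leaned to division and pMN3 to DNA synthesis, and the retinal class, like pMN1, was divided more evenly. Each class held cells of both kinds, with 32 of 143 pMN2 cells called S and 13 of 95 pMN3 cells called G2M.

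These distributions were compared over all pairs made of 1 retinal and 1 pMN cell, and classes were taken as apart only where the retinal cell was the higher in at least 75% or at most 25% of pairs. By this rule the retinal G2M scores were above those of pMN3, with 79.1% of pairs. No other score of the integrated table reached the limit. CC.Difference came near it against pMN3 (25.8% of pairs) and passed it with the scores of the stage table (24.4%), without the deepest 5% of cells (24.9%) and among cells of 5000 to 8000 UMIs (22.9%). Against pMN1 the S score, the G2M score and CC.Difference gave 45.5%, 51.2% and 46.1% of pairs, so neither class was mostly above the other. The cycle genes may be part of the expression from which classes are built, and the contrasts among the classes are therefore only descriptions.

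**Figure D4:**
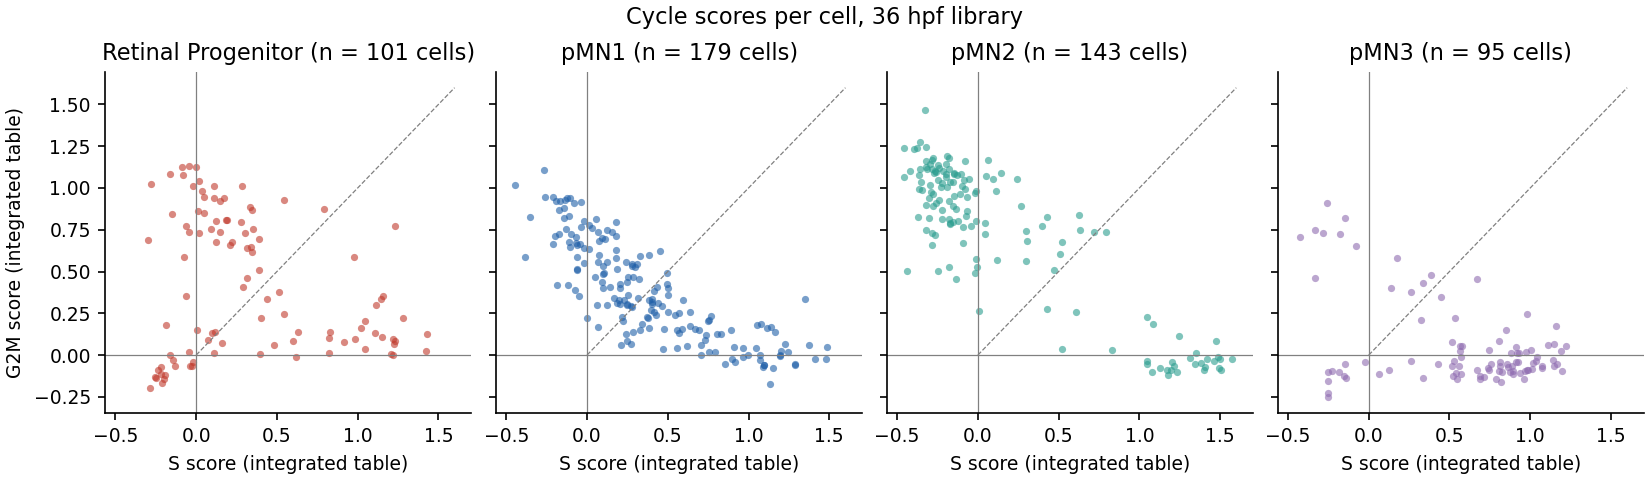
S score (horizontal) against G2M score (vertical) of each 36 hpf cell in the integrated table, for Retinal Progenitor (101 cells), pMN1 (179), pMN2 (143) and pMN3 (95). Grey lines mark 0 and the dashed line equal scores; retinal cells reach high values on both axes and include a small group below 0 on both, which is absent in pMN1 and pMN2.

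Many retinal cells scored on both axes at once. In 70 of 101 cells (69.3%, 59.3 to 78.1) both scores of the integrated table were above 0, the same level as in pMN1 (69.3%, 124 of 179 cells). The share was above those of pMN2 (22.4%, 15.8 to 30.1) and pMN3 (29.5%, 20.6 to 39.7). This count was not made with the scores of the stage table. By those, the cells called G2M in the integrated table had a median S score of 0.01 in the retinal class and 0.05 in pMN1. Within the retinal class, cells called S had a median S score of 1.00 and a G2M score of 0.10. The corresponding values of cells called G2M were 0.11 and 0.77. In pMN2 the same 2 groups were more sharply separated, with a median G2M score of -0.04 in S cells and a median S score of -0.18 in G2M cells. The retinal cells just inside and just outside the G1 call were few, with 3 cells whose higher score was above 0 and at most 0.1 and 7 cells with a higher score between -0.1 and 0.

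Retinal cells were close to pMN cells in UMIs, and had fewer detected genes than pMN1. The median retinal cell at 36 hpf had 6741 UMIs (quartiles 5450 and 8115), against 6901 in pMN1, 6845 in pMN2 and 6433 in pMN3, and the retinal cell was the deeper in 49.9% of pairs with the 3 classes together. The median number of detected genes was 1415 (1214 and 1568) in retinal cells, 1726 in pMN1, 1662 in pMN2 and 1553 in pMN3. The retinal cell had more genes in 19.8% of pairs with pMN1, which met the rule, and in 28.0%, 35.7% and 26.3% of pairs with pMN2, pMN3 and all 3 classes, which did not.

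At like depth the gap in detected genes was wide. Among cells of 4000 to 6000 UMIs the median retinal cell had 1199.5 genes (26 cells, quartiles 1133.75 and 1254.25) and the median pMN cell had 1466.5 (94 cells, 1350.75 and 1528.75). From 6000 to 8000 UMIs the medians were 1440 (38 cells, 1379.5 and 1523.5) and 1687 (171 cells, 1609 and 1791.5). From 8000 to 10000 UMIs they were 1605 (17 cells, 1561 and 1716) and 1972 (57 cells, 1902 and 2039). In each of these ranges the upper quartile of the retinal cells lay below the lower quartile of the pMN cells. When each retinal cell was matched to a pMN cell of near UMI count, it had fewer genes in 96 of 101 pairs, with a median difference of -262 genes. Matched to each class on its own, it had fewer genes in 98 of 101 pairs with pMN1, 99 of 101 with pMN2 and 81 of 95 with pMN3.

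Over the window of 5000 to 8000 UMIs, chosen after the depths were seen, the retinal cell had more genes in 9.42% of pairs with the 3 pMN classes, 7.13% with pMN2 and 15.3% with pMN3, and each met the rule. Retinal cells had the lowest median there, 1410 genes, among the 8 classes with at least 20 cells in the window. The next of these 8 were Pre-OPC with 1524 and pMN3 with 1567, and MN2 was highest with 1758. NP1 and NP2, with 14 cells each in the window and so not ranked, had lower medians of 1377.5 and 1308.5. Other unranked classes were close to the retinal median, with 1411 in Pre-V3 IN (3 cells) and 1413.5 in CMN (12 cells). MN5 (10 cells) had 1460 and V2 IN Precursor (5 cells) 1501, and the remaining unranked classes with cells there were above Pre-OPC. Which genes were not detected cannot be read from tables of cells.

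**Figure D5:**
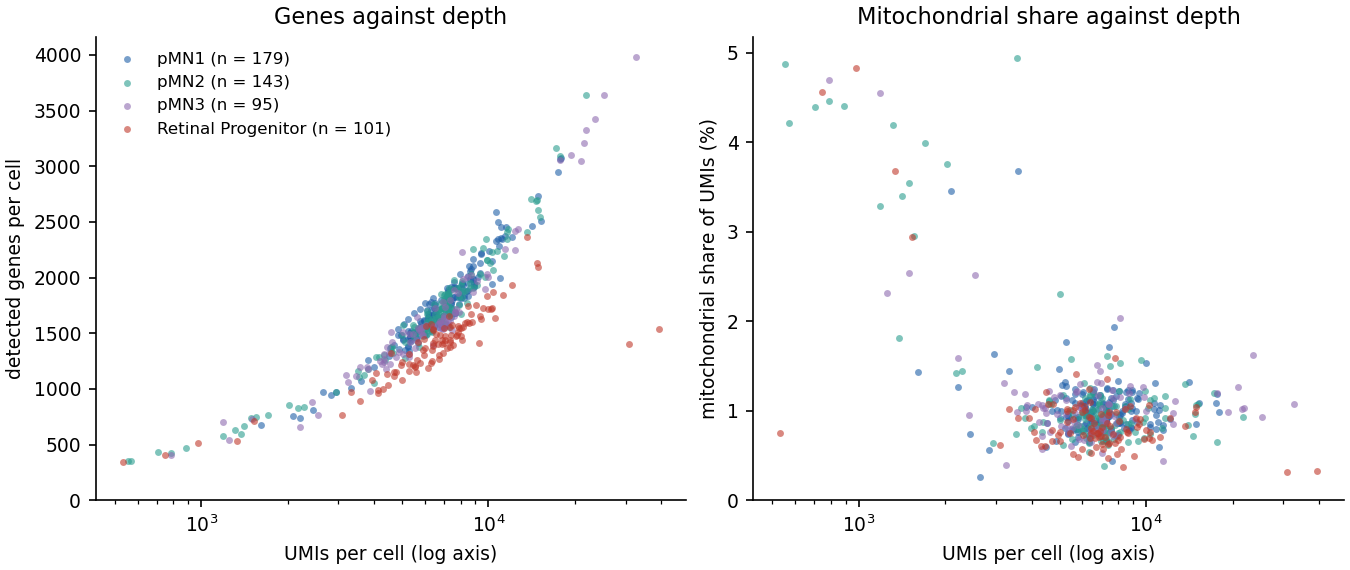
Detected genes per cell (left) and mitochondrial share of UMIs in percent (right) against UMIs per cell on a log axis, for the 36 hpf cells of Retinal Progenitor, pMN1, pMN2 and pMN3. The retinal cells run below the pMN cells from about 4000 UMIs upward, and 2 retinal cells of 30806 and 39305 UMIs lie far to the right with 1407 and 1535 genes.

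A pair of cells at the deep end stood apart from the rest of the class. With 39305 and 30806 UMIs they ranked 1st and 3rd in depth among the 2044 cells of the library, yet held 1535 and 1407 genes, which is 3.91 and 4.57 genes per 100 UMIs. The next deepest retinal cell, of 14858 UMIs, had 2099 genes, or 14.1 per 100 UMIs. Their mitochondrial shares, 0.328% and 0.321%, were the lowest among the 101 retinal cells of 36 hpf, and the stage table named both pMN2. The labels do not say whether doublets were removed, and a doublet caller needs counts of each gene. Both are left out in the alternative that drops the deepest 5% of cells.

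Over cells of all depths, the retinal class also had the lowest median mitochondrial share of the 21 classes with at least 20 cells at 36 hpf. It was 0.789% (quartiles 0.680 and 0.989), against 0.861% in V2 IN Precursor, the next lowest, 0.948% in pMN2, 0.993% in pMN1, 1.02% in pMN3 and 1.52% in MN2, the highest. In numbers of molecules, the median retinal cell held 53 mitochondrial UMIs and the median pMN cell 64. The quartiles overlap, and the retinal share was the higher in 29.3%, 33.4% and 29.4% of pairs with pMN1, pMN2 and pMN3, so the rule for classes that stand apart was not met. In cells matched on UMI count the retinal share was the lower in 73 of 101 pairs (72.3%). Single retinal cells went the other way, with 3 cells of 746 to 1331 UMIs at 3.68% to 4.83%. In all libraries the highest share of any cell was 4.995%.

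Most retinal cells of the outer stages were called S or G2M. At 24 hpf 11 of 12 were called S or G2M (91.7%, 61.5 to 99.8) and at 48 hpf 8 of 9 (88.9%, 51.8 to 99.7), with all 8 of the latter called G2M. By the stage tables these counts were 10 of 12 and 7 of 9, and the number called G2M went from 8 to 4 at 24 hpf and from 8 to 5 at 48 hpf. The share over all other cells was computed at 36 hpf only, so these counts have no background from their own library. At 48 hpf the cells of 533, 831 and 6042 UMIs were called G2M on low G2M scores of 0.120, 0.124 and 0.152. The stage table called them G1, S and S. The 4 deep cells of 24 hpf had 1781 to 2181 genes and mitochondrial shares of 0.345% to 0.472%. The 3 cells of 48 hpf with mostly retinal neighbours in the integrated embedding had 13957 to 17031 UMIs, 3018 to 3237 genes and shares of 1.13% to 2.09%. No stage was compared with another on these measures, since 8 of the 12 cells at 24 hpf were shallow and the libraries differed in depth.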

How the data were processed

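Cell tables were used, 1 per stage and 1 integrated over the 3 libraries. The submitters' processing notes list Cell Ranger, Seurat and GRCz11; their versions and settings are not given here. The authors deposited UMIs and detected genes of each cell as raw counts. Mitochondrial reads were deposited by the authors as a percent of the UMIs of a cell. S, G2M and CC.Difference values are scores deposited per cell, as are the embedding coordinates. No cell had under 504 UMIs or over 4.995% mitochondrial reads, and the filters applied are not stated. Tables were joined by barcode and stage (6264 of 6264 cells), and in all of them phase followed the higher score.

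Shares have exact Clopper-Pearson intervals, and ratios exact conditional ones. With 1 library per stage there was no test. Depth matching paired retinal cells with pMN cells of near log UMI count, minimising the summed distance, without repeats. Against pMN3, with its 95 cells, it gave 95 pairs and left the other retinal cells unpaired. The largest gap in log2 UMIs was 0.29 for the 3 classes together. For pMN1, pMN2 and pMN3 alone it was 2.31, 1.15 and 1.23. Cells could not be thinned to equal UMIs, since that needs counts of each gene. Planned and added alternatives are given in the closing section. A pair share counts ties as equal parts. The class, the measures, the compared classes and the size rules were chosen with earlier results of these data known. No gene was named with a value. Scripts ran under scipy 1.17.1, numpy 2.4.6, pandas 2.3.3 and matplotlib 3.10.9 in Python 3.11.15. The functions for intervals of shares, pair shares and depth matching were tested on simulated data, and the others were not.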

Additional observations from a re-analysis of the deposited data

How the results depend on the processing

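Of 235 values under alternatives, 215 kept their side of a size rule, 10 passed a rule that the main value had not and 4 no longer passed one. The other 6 are shares of matching names, which have no size rule and stayed within the interval of the main value. None of the results past a rule turned in direction, and 20 values turned where neither value was past it. The alternatives of 5000 to 8000 UMIs and of retinal cells named so in both tables were chosen after seeing the data.

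The log2 ratio of the retinal share stayed past the rule in each of 5 alternatives, from 2.81 to 5.07 at 36 over 24 hpf (2.91 in all cells) and from 3.61 to 5.46 at 36 over 48 hpf (3.72). The highest values use the names of the stage tables, with a floor of 3 cells in place of 0, and so reflect naming. The class was chosen with its concentration at 36 hpf known, so these ratios are no test of it. The difference in the share called S or G2M from the 3 pMN classes was no longer past the rule when matched on UMI count (-9.90 percentage points), by the names of the stage table (-8.40) and at 5000 to 8000 UMIs (-9.42), and that from pMN2 was lost at 5000 to 8000 UMIs (-11.5). The pairs in which the retinal cell had more genes fell under 25% with at least 2000 UMIs (22.8% for pMN2, 24.5% for the 3 classes), with at most 3% mitochondrial reads (22.5% and 24.2%) and at 5000 to 8000 UMIs (7.13% and 9.42%, and 15.3% for pMN3). For CC.Difference against pMN3 this held once the deepest 5% of cells were left out (24.9%), by the scores of the stage table (24.4%) and at 5000 to 8000 UMIs (22.9%). The cause of these changes was not tested. No paired analysis was possible because each stage has 1 library. The 24 and 48 hpf classes hold 12 and 9 cells, and 8 and 3 of these had fewer than 3000 UMIs.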

Other observations

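The 36 hpf stage table held 113 cells named Retinal Progenitor, of which 96 kept that name in the integrated table and 14 became V2 IN Precursor. The other 3 became CMN Precursor, Pre-OPC and pMN2. The 14 cells were 14 of the 23 integrated V2 IN Precursor cells of 36 hpf. They were deeper than the 96 cells, with 8026 to 10896 UMIs and a median of 9503 against 6726. They had a median of 1992 genes against 1417.5, and 0.767% mitochondrial UMIs against 0.795%. Of the 14 cells, 9 had 8000 to 10000 UMIs and a median of 1976 genes, against 1605 in the integrated retinal class and 1972 in the pMN classes over the same range. Their median G2M score was 0.97, that of the 96 cells 0.36, and 0 of the 14 were called G1 (upper limit 23.2%). Neither contrast is at like depth, as the 14 cells had at least 8026 UMIs and no integrated retinal cell called G1 had over 6978. In gene number at like depth the cells that became V2 IN Precursor were nearer to the pMN cells than to the retinal cells with which the stage table grouped them.

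The same 2 names crossed at 24 hpf. The 49 cells named V2 IN Precursor in that stage table were divided by the integrated table into 14 V2 IN Precursor, 13 pMN3, 11 Retinal Progenitor and 11 cells of other classes. These values compare names and cells of a single library, and no test was possible.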
